A study of Triticum aestivum with 78 samples.

Results

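Among the probe sets measured on 78 wheat seed arrays, 145 of 61115 (0.237%) split the arrays into a high and a low cluster with empty space between them. They were chosen by sorting the 78 log2 values of each probe set and keeping those whose largest gap between neighbouring values, with at least 10 arrays on each side, was 0.6 log2 units or more. The values that chose them were therefore the array values themselves, without the line labels, and gap widths and class levels below are a description. The arrays came from developing seed of bread wheat (Triticum aestivum), harvested 5 days after anthesis, from 39 lines of a cross labelled RL4452 x AC Domain. Each line had 2 arrays, given as biological replicates. The lines had been grown in the field as entries of a lattice with 49 entries and 3 replications, and no treatment was given to any of them. The lines were G30, E5, DH95, C31, A40, C22, B68, H9, G32, F38a, C25, J15, A77, D39, A10, B10, A88, F36, B11, DH91, C58, D15, F29, H23, H5, A81, F48, B65, B33, H8, F44, F38b, A91, F82, C10, G13, H10, F87 and A35. All of them share this cross and differ by the parental alleles they inherited. None of the 78 arrays was labelled as a parent, so it is not known which parent carried the high class of any probe set. The labels do not say from which field replication an array came or whether replicates were separate plots. The p-values therefore rest on how the 2 arrays of a line agree, whatever set those arrays apart.

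In a cross of inbred parents, each locus of a fixed progeny line carries the allele of either parent, so a transcript governed mainly by a single locus takes a high or a low level in each line. Loci close together on a chromosome are inherited together more often than not, and a line whose classes change within a set of linked loci carries a crossover among them. Bread wheat is hexaploid, with closely related copies of most genes on its subgenomes, and a probe that matches one copy or one parental allele better than another gives the same picture as a difference in transcript level. The 2 cannot be told apart on these arrays.

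The values were intensities that the authors had summarized per probe set with RMA, here on a log2 scale, with array medians of 32.1 to 36.4 on the linear scale. GBSS, the starch synthase of amylose, was above the median level of all values, 5.05, on every array, at 7.18, 9.63 and 11.59 log2 units (lowest, median and highest of 78 arrays). Of 2 probe sets of the lipid transfer protein LTP3, 1 lay at 12.60, 13.79 and 14.25 and the other at 4.39, 5.37 and 9.33. Among genes of green tissue, the Calvin cycle kinase PRK lay at 10.73 to 11.73, and the 2 probe sets of FBP at 8.92 to 10.19 and 6.52 to 8.97. Those of the Rubisco gene rbcl differed widely, and most were above the median level on few or no arrays. For example, Ta.24976.1.S1_x_at lay at 14.38 to 14.76 and TaAffx.128414.53.S1_at at 2.69 to 3.14. Probe sets of seed storage and defence proteins varied. The 5 of the gliadin gli-2 were above the median level on 77, 11, 1, 0 and 0 arrays, the 2 of the purothionin Pur-A1 on 11 and 9, the 2 of the thionin THI1.1 on 63 and 47, and the 4 of the alpha-amylase inhibitor ATI on 77, 70, 34 and 26.

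Before the splits are described, several arrays went against their labels. If the label of an array names its line, the 2 arrays of a line should lie on the same side of a split, and in G30, G13, H9, B33, H23 and H8 they lay on opposite sides at more than 25% of the 145 probe sets. The counts were 92 for G30, 91 for G13, 78 for H9, 68 for B33, 63 for H23 and 53 for H8, while the other 33 lines had 0 to 35 with a median of 3. These 6 lines held 445 of all 767 opposite pairs (58.02%). The replicate 2 arrays of all 6 had been scanned on 1 day, which held 8 arrays in all, the other 2 being H5 replicate 2 and H10 replicate 2. H5 had 27 opposite pairs and H10 had 0. The replicate 1 arrays of the 6 lines had been scanned on 5 other days. What scan day stands for in the field or laboratory is not given by the labels, and its part in the disagreement was not tested.

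The arrays labelled G30 and G13 matched each other crosswise. Replicate 1 of G30 and replicate 2 of G13 differed in side at 1 of the 145 probe sets, Ta.9332.2.A1_x_at, and replicate 2 of G30 and replicate 1 of G13 differed at 0. The pairs that share a label differed at 92 and 91, and the same-numbered pairs at 92 and 91. Replicate 1 of H9 differed from both arrays of C22 at 3 probe sets each, whereas replicate 2 of H9 differed from them at 77 and 79. Arrays of different lines differed at a median of 69 of 145. B33, H23 and H8 had no such near match: their nearest arrays of another line differed at 27 to 38 probe sets. In all, 62 of 78 arrays were nearest to their own replicate and 16 were nearer to an array of another line. Among the 16, replicate 1 of F44, replicate 1 of F82 and both arrays of F38b belonged to lines outside the 6. No array was moved to another label. The exact pairing test, the limma calls and the grouping are given with and without the 6 lines. Other results include the 6 lines unless stated otherwise.

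**Figure D1:**
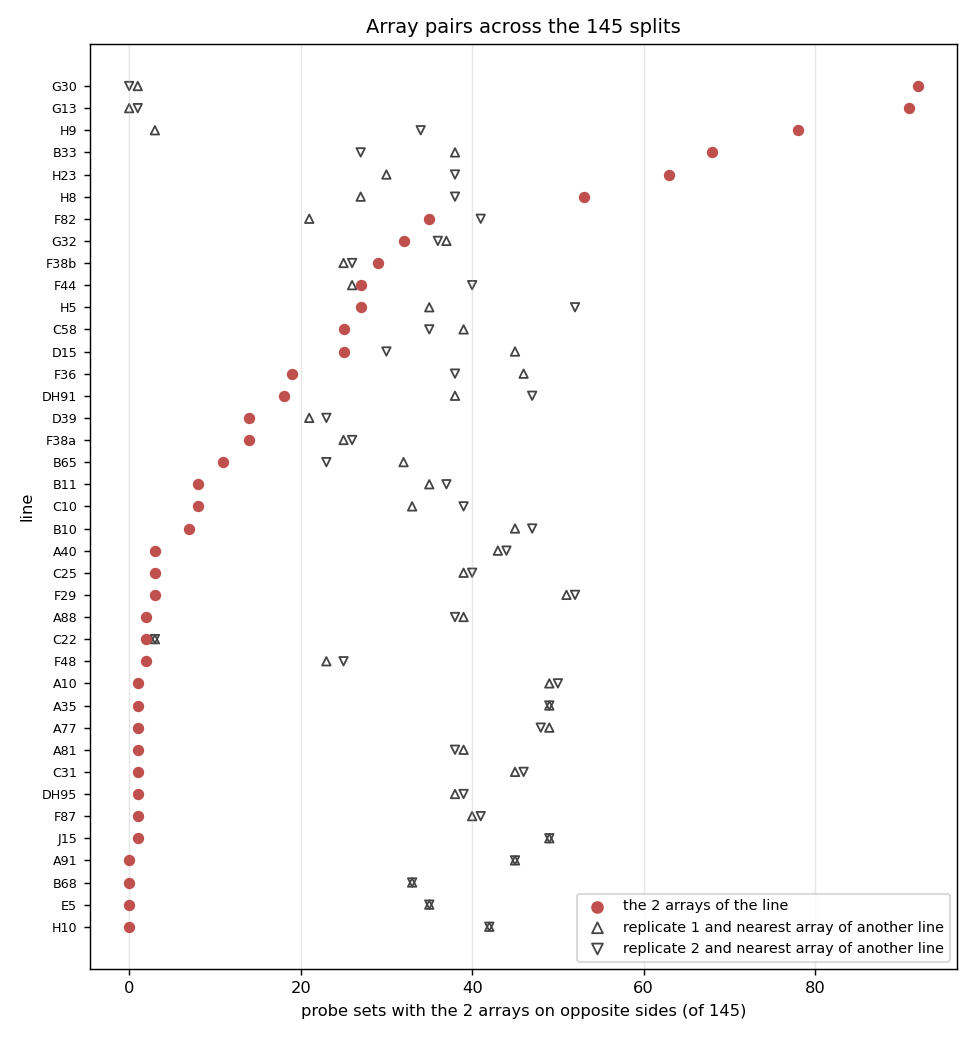
For each line (vertical axis), the number of the 145 probe sets at which its 2 arrays lay on opposite sides (filled circles) and at which each array differed from its nearest array of another line (open triangles). G30 and G13 pair counts of 92 and 91 between their own arrays with a count of 0 or 1 to an array of the other line, and most lines show the reverse order.

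The gap between the classes had a median of 0.96 log2 units and ranged over 0.60 to 3.41, against a median of 0.040 over all probe sets. It reached 1 in 69 members, 2 in 25 and 3 in 6. Class means differed by 2.77-fold to 165-fold, with a median of 12.5-fold. The high class lay above the median level in all 145 by its mean. The low class had a mean below that level in 85, and in 36 every low array was below it. The low class was thus often a signal among the dimmer values of the array, where RMA levels do not separate a low transcript from none. High arrays numbered 10 to 68 with a median of 45. More lines were high than low in 114 members, more were low than high in 28, and the numbers were equal in 3. The smaller class held at least 15 lines in 50 members, 10 to 14 in 77 and fewer than 10 in 18. At the threshold of the rule, the gap was 0.608 in Ta.5507.1.S1_at, 0.606 in Ta.23142.5.S1_x_at and 0.601 in Ta.7178.1.S1_s_at, just inside. It was 0.599 in Ta.9169.1.S1_at, 0.598 in Ta.14786.1.S1_at and 0.594 in Ta.8998.1.S1_at, just outside.

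The widest gap, 3.41, was that of Ta.1725.3.S1_at. Its 52 high arrays ranged over 8.68, 11.69 and 12.31 log2 units (lowest, median and highest), and its 26 low arrays over 4.30, 4.74 and 5.27. No array fell between, yet 10 lines had an array in each class, among them F38a, D15, H5, B65, F44 and F38b besides H9, H23, B33 and H8. Ta.6952.1.S1_a_at had a gap of 3.39, with 50 high arrays at 8.32, 10.41 and 10.88 and 28 low arrays at 3.78, 4.26 and 4.93. Here 23 lines were high on both arrays, 12 were low on both, and the 4 with opposite arrays were G30, G13, H9 and F36. Ta.28744.1.S1_at had a gap of 3.29, with 43 high arrays at 8.51, 11.64 and 12.04 and 35 low arrays at 4.10, 4.58 and 5.22. Its opposite lines were G30, G13, G32, B11 and DH91.

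The largest fold between class means, 165, belonged to TaAffx.113846.1.S1_s_at. Its 45 high arrays lay at 7.15, 11.59 and 12.49 log2 units and its 33 low arrays at 3.45, 3.82 and 4.59. TaAffx.58902.1.S1_x_at divided the lines almost evenly, with 19 lines high, 18 low and only H9 and C58 opposite. Its 40 high arrays lay at 8.04, 9.76 and 10.34, and its 38 low arrays at 3.97, 4.31 and 4.82. Among the remaining members with the 10 widest gaps, TaAffx.105083.1.S1_at, Ta.20949.1.A1_at, Ta.14543.2.A1_at, Ta.9397.1.S1_at, Ta.28263.1.S1_at and TaAffx.33919.1.S1_at had class means 20.3-fold to 73.9-fold apart. The files pair none of these 11 probe sets with a gene symbol, so the transcripts are known here by probe set name only.

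**Figure D2:**
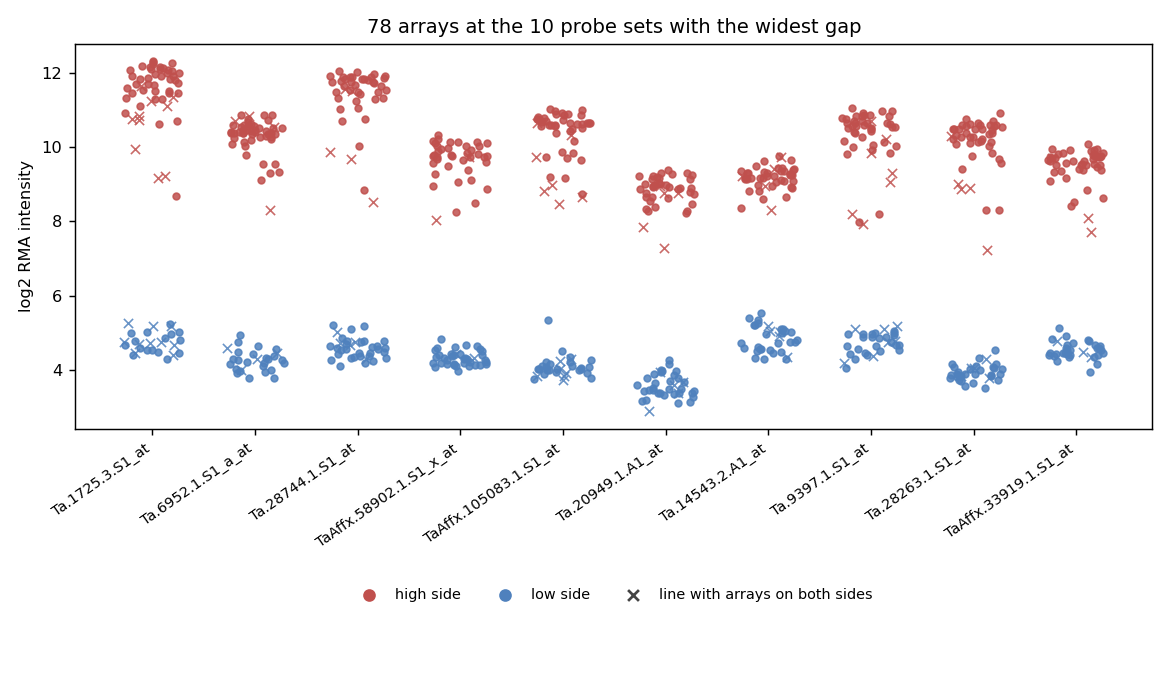
Log2 RMA intensity (vertical axis) of the 78 arrays at the 10 probe sets with the widest gap, in order of gap from left to right. Red marks the high side, blue the low side and crosses the arrays of lines that had an array on each side; the crosses of the high side often lie in its lower part.

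The test of whether the sides belong to the lines used the labels, which the selection had not used. For each probe set, the number of lines with arrays on opposite sides was compared with its exact distribution when 78 arrays are paired at random (one-sided). After Benjamini-Hochberg adjustment over 61115 probe sets, 132 of 145 members passed the exact pairing test (91.03%), against 1.73% of all probe sets. Members had a median of 5 opposite lines of 39 (0 to 16), and the other probe sets a median of 12 (0 to 30). Among the 33 lines outside the 6, at most 1 line was opposite in 52 members (35.9%), against 0.303% of the other probe sets. By limma's moderated F over the 39 lines, 143 of 145 members had a genotype effect (98.6%), against 6.69% of all probe sets. Without the 6 lines, 137 members and 1323 of all probe sets passed the pairing test. By limma, 142 members then had a genotype effect, against 4941 of all probe sets (8.08%). With all arrays, the number of all probe sets with a genotype effect was 4088. Among settings with 1 array left out, it moved most without H8 replicate 1, which leaves that line with replicate 2 only.

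Ta.9188.2.S1_x_at was the single member with no opposite line, 32 lines being high on both arrays and 7 low on both (adjusted p = 2.7e-05, exact pairing test). Its 64 high arrays lay at 6.99, 8.14 and 8.84 and its 14 low arrays at 4.48, 5.10 and 6.13. Ta.9188.2.S1_at, a second probe set of the same transcript cluster, had 1 opposite line, A40.

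The members that failed the pairing test were of a few kinds. In Ta.25876.1.A1_at 16 of 39 lines were opposite and in Ta.11025.1.A1_at 10 were, with no line high on both arrays. Neither had a genotype effect by limma (adjusted p = 0.487 for Ta.25876.1.A1_at and 0.892 for Ta.11025.1.A1_at). Ta.25876.1.A1_at had 32 high arrays at 6.18, 8.49 and 10.82 and 46 low arrays at 2.87, 3.49 and 5.28. Ta.1725.3.S1_at, Ta.14571.2.A1_at and TaAffx.57156.1.S1_at, with 10 opposite lines each, had adjusted p of 0.255, 0.255 and 0.132 in the exact pairing test, and a genotype effect by limma. The other 8 had 10 to 16 arrays in their smaller class and are described with the alpha-amylase inhibitor below.

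Few members were called different between the replicates. Replicate 2 differed from replicate 1 in 5 of 145 members by limma with line as a block (3.45%), against 28.7% of all probe sets. Replicate 2 was the high array in 404 opposite pairs and replicate 1 in 363. Without the 6 lines, 12 members differed between replicates (8.28%), against 31.5% of all probe sets. When any 1 array was left out, 3 to 6 members did, with 3 without either array of G30, among others. Residual SD within lines had a median of 0.92 log2 units over members and of 0.57 without the 6 lines, against 0.21 and 0.19 over all probe sets. A replicate difference of a given size was therefore harder to call in members, and the shares called do not compare sizes. Differences of 0.57 at TaAffx.105083.1.S1_at and -0.56 at Ta.7259.1.S1_a_at, for example, were not called (limma adjusted p = 0.23 and 0.091).

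**Figure D3:**
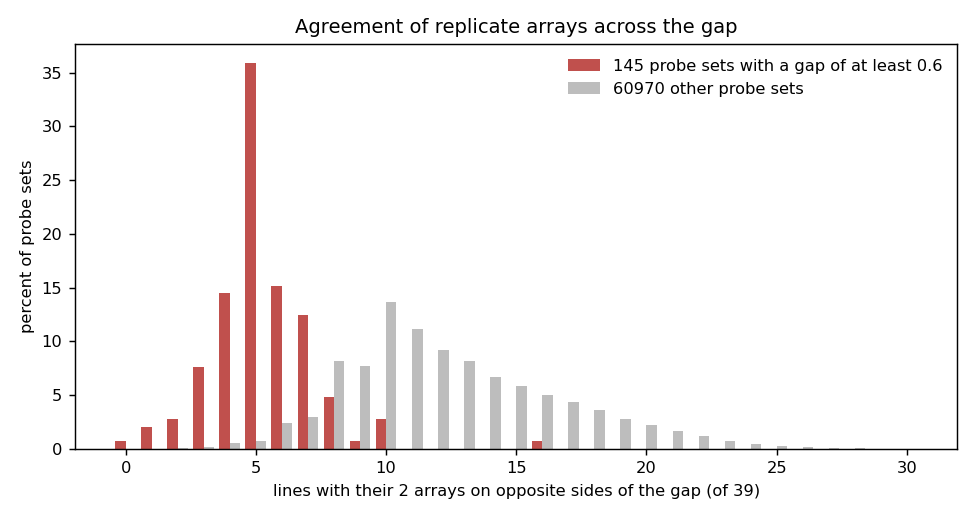
Percent of probe sets (vertical axis) by the number of lines, of 39, whose 2 arrays lay on opposite sides of the largest gap. Red bars are the 145 members, which peak at 5 lines, and grey bars the 60970 other probe sets, whose median was 12.

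Members were then compared by which lines they divided. Each line was classed high or low where its 2 arrays shared a side, and members were joined where at most 10% of shared lines differed, in the same phase or as mirror images. This put 109 of the 145 members into 26 groups, 20 of them with 3 or more members, and left 36 outside. Without the 6 lines, the same members formed 28 groups, the largest again with 19. Of the 26 groups, 24 held probe sets of several transcript clusters. Mirror images, in which the lines high at one probe set are low at another, occurred in 11 groups. These counts include the group of 8 that holds the alpha-amylase inhibitor. That group did not divide the lines alike in the same sense and is described below. Without it, 10 groups had mirror images.

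The largest group held 19 members of 14 transcript clusters, led by Ta.14543.2.A1_at. All 171 pairs among them gave the same class to each shared line, all in the same phase, with class means 4.09-fold to 65.4-fold apart. Ta.14543.2.A1_at had 45 high arrays at 8.31, 9.23 and 9.75 log2 units and 33 low arrays at 4.30, 4.81 and 5.52. Ta.5627.1.S1_at, with the largest fold of the group, had 47 high arrays at 8.45, 11.45 and 12.19 and 31 low arrays at 4.84, 5.22 and 6.37. Its lead was high in 20 lines and low in 14, with opposite arrays in G30, G13, H23, B33 and H8. H8 had opposite arrays at 16 of the 19 members and was high at the other 3, and F36 was low at 16 and had opposite arrays at 3. No line of the 39 was high at one member and low at another. Among probe sets with narrower gaps, 9 more divided the lines like it, 4 in the same phase and 5 as mirror images.

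Lines with a rare combination appeared in other groups. In the group of 7 led by TaAffx.105083.1.S1_at, this probe set and TaAffx.107343.1.S1_at were high in lines where Ta.28263.1.S1_at, both probe sets of Ta.7259.1, Ta.27806.1.A1_at and TaAffx.55074.1.S1_s_at were low, and the reverse. F38a, D39 and F36 were the exceptions, on the high side at all 7 on both arrays. Some of these readings lay well below the medians of the high class: on a scale from 0 at the median of the low class to 1 at that of the high class, the lowest was 0.50 in D39 (replicate 2 at TaAffx.107343.1.S1_at), 0.67 in F36 and 0.75 in F38a. TaAffx.105083.1.S1_at read 9.20 and 9.71 in F38a, 9.64 and 8.73 in D39 and 9.86 and 9.17 in F36, against a median of 10.61 in its high class and 4.03 in its low class. Ta.28263.1.S1_at read 9.77 and 9.40 in F38a, 9.57 and 10.56 in D39 and 8.31 and 10.08 in F36, against medians of 10.29 in its high class and 3.88 in its low class. C10 differed from the group at Ta.27806.1.A1_at only.

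Being high at both phases was common in particular arrays, and being low at both was rare. Over 10 groups with members of both phases, leaving out the group of the alpha-amylase inhibitor, 35 probe set pairs of opposite phase gave 2730 array values. An array was high at both probe sets in 360 (13.2%) and low at both in 28 (1.03%). Of the 360, the group led by TaAffx.105083.1.S1_at gave 144, from 10 of the 35 pairs. The group led by Ta.10217.1.A1_at gave 100, from 8 pairs, so the counts per array rest largely on these groups. The 10 arrays with most such pairs held 207 of the 360 (57.5%), and 42 of the 78 arrays had none. H5 replicate 1 had 24 of 35 and F38a replicate 2 had 23. D39 replicate 1, F36 replicate 2 and F38a replicate 1 had 21 each, and C58 replicate 2, D39 replicate 2, F36 replicate 1 and F44 replicate 1 had 20 each. In F38a, D39 and F36 both arrays were therefore of this kind, while in H5 and C58 one was. The 33 lines held 293 of the high pairs and 24 of the low ones, and the 6 lines held 67 and 4.

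The group of 6 led by Ta.10217.1.A1_at showed both kinds of exception. In E5, A88 and A35 the group parted into the same sets of 3 and 3 probe sets, with Ta.10217.1.A1_at, Ta.10217.3.S1_at and the mirror image Ta.23807.4.S1_s_at in the class of one set of lines and Ta.5390.1.S1_at, Ta.8878.1.S1_at and the mirror image Ta.7318.1.S1_a_at in that of the other. E5 carried the high class of Ta.10217.1.A1_at with the low class of Ta.5390.1.S1_at, and A88 and A35 the reverse. In D39, by contrast, all 4 probe sets of the lead's phase and both mirror images were high. F38a was high at the 4 and at Ta.7318.1.S1_a_at, with opposite arrays at Ta.23807.4.S1_s_at.

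Smaller departures touched 1 probe set at a time. In the group of 6 led by TaAffx.113846.1.S1_s_at, H10 was high at 5 members and low at TaAffx.36658.1.S1_at. In the group of 5 led by Ta.9409.1.S1_at, A81 and C10 departed at TaAffx.12065.1.S1_at. In the group of 4 led by Ta.9397.1.S1_at, A40 was on the high side at the lead, at 7.97 and 8.19 against class medians of 10.54 (high) and 4.75 (low), and in the other class at the remaining 3, and F48 departed at Ta.7167.1.A1_at. B10, DH91 and F29 departed at Ta.7326.2.S1_at from the group of 3 led by TaAffx.16946.1.S1_at. The groups led by Ta.28744.1.S1_at, Ta.4381.2.S1_a_at and Ta.13844.1.S1_x_at, of 4 members each, had no such line. Among groups of 3 or more, leaving out that of the alpha-amylase inhibitor, F36 and F38a each carried a mixture of classes in 4 groups. D39, A35, A81, C10 and F29 did so in 2 each. F36 and F38a also had many readings between the classes. On the scale given above, 46 and 22 member values of F36 (replicates 1 and 2) lay between 0.25 and 0.75. In F38a 24 and 23 did, against a median of 5.5 per array. At Ta.23397.2.S1_at, for example, F36 was classed low at 8.31 and 7.78. Whether such mixtures mark a change of class was not tested. No line of the 33 was mixed in 7 groups of 3 or more, and in 12 of all 26 groups.

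**Figure D4:**
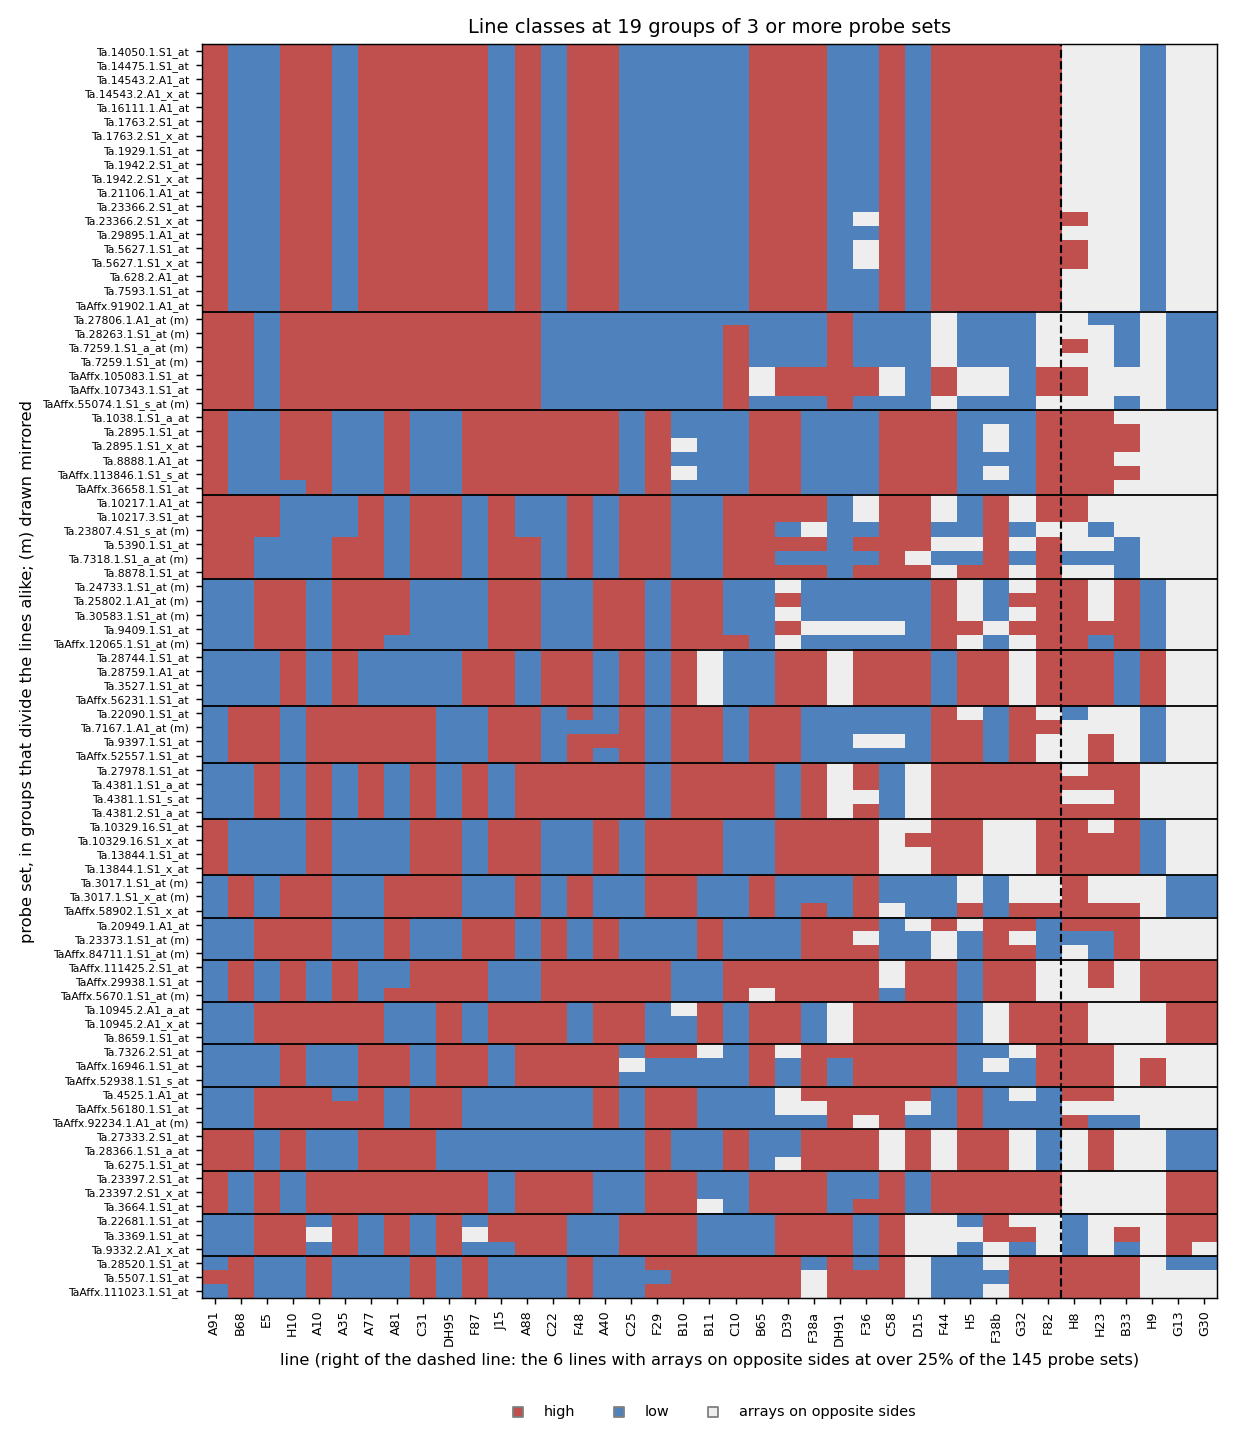
Class of each of the 39 lines (horizontal axis) at the probe sets of 19 groups of 3 or more members (vertical axis, groups parted by black lines), without the group of the alpha-amylase inhibitor; mirror images are turned to the phase of the lead. Red is high on both arrays, blue low on both and pale grey opposite; in the top group of 19 no line shows both red and blue, though H8 and F36 are grey at part of it, and colour changes within a group mark lines with a rare combination.

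Groups were also compared with each other over the 33 lines, in the nearer phase. The 299 pairs of groups with at least 6 lines in the smaller class differed in 10.0% to 50.0% of lines, with a median of 44.8%. In 8 pairs it was 25% or less. The groups led by Ta.4525.1.A1_at and Ta.6952.1.S1_a_at were mirror images in all but 3 of 30 lines, the exceptions being A35, B68 and DH91. The groups led by Ta.10217.1.A1_at and Ta.20949.1.A1_at were so in all but 5 of 29 lines, the exceptions being B10, F38a, F38b, H5 and J15. The group of 19 and the group led by Ta.23397.2.S1_at differed in 7 of 33 lines, of which A40 and H10 were high in the first and low in the second, and A35, B10, C22, E5 and F29 the reverse. The groups led by Ta.9409.1.S1_at and Ta.9397.1.S1_at also differed in 7 of 33. Chromosome positions of the probe sets were not used here, so none of these sets is placed on a linkage group.

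Probe sets outside the 145 that passed the exact pairing test numbered 926, and 330 matches of such probe sets to a group of 3 or more were found, in 18 of 20 groups. The group of 3 led by Ta.3369.1.S1_at had 124 of them, 123 in the same phase, with gaps of 0.032 to 0.598 log2 units. Its lead had 48 high arrays at 7.30, 8.90 and 9.60 and 30 low arrays at 4.51, 5.34 and 6.25. The high lines of this group were G30, E5, DH95, C22, F38a, C25, J15, D39, B10, A88, DH91, C58, F29, A81, F38b, G13, H10 and A35. G30 and G13 among them are the lines whose arrays matched each other crosswise. The next largest numbers were 33 for the group led by TaAffx.105083.1.S1_at and 27 for that led by Ta.10217.1.A1_at.

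Among lines, F38a and F38b, whose names share a number, were the closest of 528 pairs of the 33 lines. They differed at 9 of 109 members at which both had a class (8.26%), against a median of 47.5% and a highest value of 73.3% for DH91 and B65. By array, those of F38a and F38b differed at 25 to 30 of the 145 members, the 2 arrays of F38b at 29 and the 2 of F38a at 14. D39 and F82 differed at 15 of 96, and F48 and B65 at 22 of 132.

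Where the 2 arrays of a line disagreed, they did so in different ways. On the same scale of 0 (low class median) to 1 (high class median), each array was given a position. In G30, G13, H9 and B33 the high array lay at a median of 0.99, 0.99, 1.02 and 1.00, that is at the level of the high class, and either replicate could be the high one. In G32 replicate 2 was the high array at 32 of 32 opposite members, at a median position of 0.57. In C58 replicate 2 was high at 25 of 25, at 0.65, and in B11 at 8 of 8, at 0.42. In F38b it was high at 28 of 29, at 0.64, and in DH91 replicate 1 was high at 18 of 18, at 0.75. The low array of these lines lay near 0. At Ta.28744.1.S1_at, for example, G32 read 9.67 on replicate 2 and 4.28 on replicate 1, against class medians of 11.64 (high) and 4.58 (low).

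Levels between the classes were gathered in certain arrays. Of 11310 array values of the members, 795 (7.03%) lay between 0.25 and 0.75 on this scale. An array had 0 to 59 of them with a median of 5.5, and 17 arrays had more than 20. H8 replicate 2 had 59, F36 replicate 1 had 46, H23 replicate 2 had 40, G32 replicate 2 had 36 and F44 replicate 1 had 33. A35 replicate 1 and B68 replicate 2 had 0. Disagreement often took in a whole group of members in the 6 lines, where all members of a group were opposite in 48 of 120 combinations of line and group, some in 32 and none in 40. In the 33 lines, all were opposite in 18 of 660, some in 75 and none in 567. These combinations cover all groups of 3 or more members, with that of the alpha-amylase inhibitor included.

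**Figure D5:**
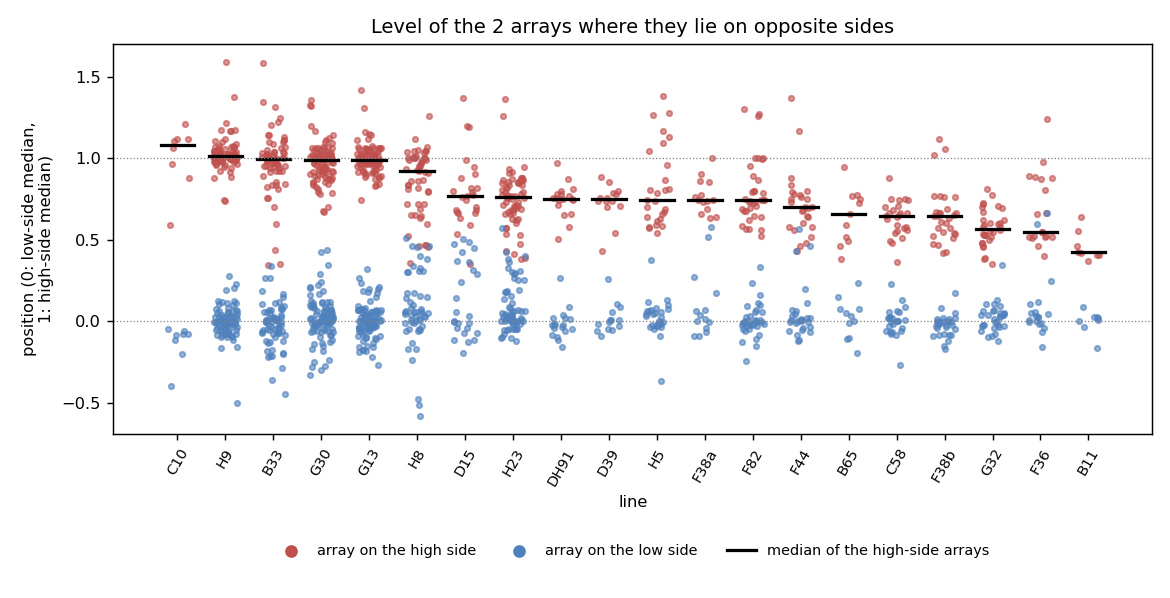
Position of the 2 arrays of a line (vertical axis, 0 being the median of the low class and 1 that of the high class) at the members where they lay on opposite sides, for the 20 lines with at least 8 such members. Red is the array on the high side with its median as a bar, blue the array on the low side; the bar lies near 1 in H9, B33, G30 and G13 and at 0.57 in G32.

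Transcript clusters represented more than once gave repeat measurements. The 145 members came from 127 clusters, 17 of which held 2 or 3 members. Of 19 pairs within a cluster, 18 divided all shared lines alike, 10 of them with no array differing, although 15 of the 19 pairs were probe sets of 1 target sequence and may share probes. Ta.10217.1.A1_at and Ta.10217.3.S1_at, of different targets, agreed on every array, with class means 39.1-fold and 5.48-fold apart. The exception was a mirror image. Ta.14571.1.S1_at was high in 17 lines and low in 18, Ta.14571.2.A1_at was high in 21 and low in 8, and 26 of their 28 shared lines were in different classes. Of 152 other probe sets of the same clusters, 56 had a genotype effect by limma (36.8%) and 25 passed the exact pairing test (16.4%), of which 21 divided the lines in the same phase as the member and 2 as its mirror image.

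By the suffix that marks probes shared with other transcripts, 13.1% of members and 11.1% of all probe sets were x_at, 8.28% and 5.43% were a_at, and 7.59% and 4.28% were s_at. These shares were not tested, and members of 1 target count more than once in them. Names beginning with TaAffx made up 17.9% of members and 48.6% of all probe sets.

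Of 1273 probe sets with a gene symbol, 2 were members. Ta.817.1.S1_a_at is annotated LOC543281 with the synonym ATI, an alpha-amylase inhibitor of the seed, and Ta.69.2.S1_x_at is annotated LOC100125699. Both belonged to a set of 8 members with 10 to 16 arrays in the smaller class, none of which passed the exact pairing test. All 8 had a genotype effect by limma, which Ta.69.2.S1_x_at lost without the 6 lines (limma adjusted p = 0.049 with all lines and 0.0548 without them). The 8 were joined because few lines were in the smaller class, and the lowest correlation (phi) between 2 of them was 0.05, so they did not divide the lines alike in the sense of the other groups. Ta.817.1.S1_a_at had 11 high arrays at 7.58, 8.35 and 11.44 log2 units and 67 low arrays at 3.89, 4.77 and 6.97. The 11 were both arrays of F36, F44 and F87 and 1 array each of H5, F82, D15, C10 and B10, with F36 replicate 1 the highest. In the same 11 arrays the purothionin probe set Ta.1308.1.S1_x_at had 4.61, 6.68 and 8.96, against 2.86, 3.23 and 5.70 in the other 67. The starch synthase GBSS (Ta.2795.1.S1_a_at) had 7.65, 10.50 and 11.13 in the 11 and 7.18, 9.49 and 11.59 in the 67. The gliadin probe set Ta.15268.1.S1_x_at had 5.39, 6.27 and 10.68 in the 11 and 4.93, 5.50 and 6.11 in the 67. PRK (Ta.23158.1.S1_at) was nearly alike, at 11.06, 11.27 and 11.73 in the 11 and 10.73, 11.20 and 11.64 in the 67. How advanced the seed of each array was is not given by the labels, and the part of these transcripts in the split was not tested. Only 1 probe set per gene was compared between the 11 and the 67 arrays. The other probe sets of Pur-A1 and gli-2, and those of THI1.1 and LTP3, were not. Nor were the other probe sets of ATI, which reached 11.22, 11.74 and 11.80 on their highest array and were not members.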

How the data were processed

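Per the labels, 2 biological replicates of 39 lines were each hybridized to 1 Affymetrix wheat array. The deposited values are linear intensities. The submitters' processing notes name RMA without a version as the authors' tool. It corrects background, brings all arrays to the same distribution and combines each probe set's probes into a single value, so small differences between arrays are pulled together and dim signals carry a floor. Log2 was taken here with no constant added, and 175 control probe sets of 61290 were left out. All 78 columns were mapped to samples by name (0 unmapped). Precision is limited by having 2 arrays per line.

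The largest gap of each probe set was found in Python 3.11.15 with numpy 2.4.6 and pandas 2.3.3. Genotype (moderated F over 39 lines) and replicate 2 minus replicate 1 (line as block) were fitted to all 61115 probe sets with limma 3.58.1 in R 4.3.3, with Benjamini-Hochberg adjusted p below 0.05. The pairing test was exact. This test, the grouping and the fits were tested on simulated data. Groups needed 30 lines with a class per member and 25 shared lines, and were joined by single linkage. Probe sets outside the members were matched to a group at a phi of at least 0.8.

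Members, lists and tests were chosen with earlier results of these data known. Probe sets named by rule were those with the widest gap, a symbol, the lead of a group of 3 or more, the most or fewest high arrays, the most opposite lines or none, the edges of the threshold, and clusters with most members. Others in a group were named for where they differ, after their values were seen. Replicate 1 arrays all carry one project label in the instrument files and replicate 2 arrays another, so replicate number and project label cannot be told apart. What the project labels stand for is not given. The arrays were scanned over 15 days, and a single day could hold both labels, such as the one with 6 replicate 1 arrays and 1 replicate 2 array. The alternatives were other gap widths and side sizes, renormalization, scan day, array weights, a level filter and leaving out arrays or lines. No chromosome positions and no probe or transcript sequences were used.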

Additional observations from a re-analysis of the deposited data

How the results depend on the processing

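The number of members was 93 at a gap of at least 0.8 and 195 at 0.5, and 136 to 189 under the other settings. Requiring 35 lines with a class left 8 groups, the largest with 4 members, since fewer members then enter; otherwise there were 25 to 29 groups, the largest with 19. Members that differed between replicates numbered 0 with no line block, against 15405 of all probe sets, and 12 without the 6 lines, against 19221. The cause was not tested. With the replicate number as a block, 143 members and 5622 probe sets had a genotype effect, so the number of members called did not change. It was 138 (3026 probe sets) with scan day as a fixed term and 141 (5574) with array weights. Without the 6 lines it was 142 (4941), and Ta.69.2.S1_x_at lost its call. Leaving out each array in turn gave 143 to 160 members, 25 to 29 groups, 19 to 19 probe sets in the largest group, 129 to 133 members and 997 to 1139 probe sets passing the exact pairing test, 140 to 143 members and 3601 to 10729 probe sets with a genotype effect (10729 without H8 replicate 1), and 3 to 6 members and 15935 to 22749 probe sets differing between replicates. Of the 145 members, 141 were kept without the 6 lines and 135 after renewed quantile normalization. Among 40 named members, 5 of 160 gaps and 2 of 160 class differences moved by more than the residual SD. The gap of Ta.4819.1.S1_at was 0.64 and became 0.08 without the 6 lines and as low as 0.10 with a single array left out (10 arrays were low), that of Ta.10945.2.A1_x_at reached 4.13 with 1 array left out, and the class difference of Ta.69.2.S1_x_at was as low as 2.27. Levels near the array floor and the 2 arrays per line limit what can be told of single lines.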
